A study of Homo sapiens with 14 samples.

Results

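The 10 contractile smooth muscle genes ACTA2, ACTG2, TAGLN, CNN1, MYL9, MYH11, TPM1, TPM2, CALD1 and LMOD1 were followed through 14 peak lists of CUT&Tag in LX-2 cells. They were taken as a named set out of 19856 protein-coding genes. For each gene, every peak that shared at least 1 bp with the hg19 gene body plus 10 kb on each side was collected, by mark, matrix and replicate. These windows were between 28.1 kb for TAGLN and TPM2 and 246.5 kb for CALD1, so the longer genes had more room for a peak. LX-2 is an immortalized human hepatic stellate cell line, the cell type that turns into a contractile, matrix-producing myofibroblast in the injured liver. CUT&Tag releases DNA fragments with a transposase that is tethered to an antibody, so a peak marks where the target of that antibody was found.

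All libraries came from LX-2 cells kept for 2 days on either matrix, soft or stiff. Antibodies against p-JUN, the phosphorylated form of the transcription factor JUN, and against the histone marks H3K4me3 and H3K27me3 each gave 2 lists per matrix. H3K27ac gave 1 list per matrix, named as merged, so it has no replicate error. The titles of the stiff p-JUN libraries carried the abbreviation TCP, which the study uses for tissue culture plastic, where those of the stiff histone libraries did not. The p-JUN contrast is therefore between libraries labelled soft and stiff, and plastic and stiff matrix cannot be told apart there. The study's methods call its sequencing replicates biological, and the labels do not say which libraries came from separate cultures.

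The contractile genes encode the actin filaments and motors that let a cell pull on its surroundings. In smooth muscle cells and myofibroblasts many of them are switched on by serum response factor (SRF), which binds a short A/T-rich element called the CArG box together with coactivators of the myocardin family. JUN binds as a dimer of the AP-1 family, mostly to the letters TGAGTCA or the reverse complement TGACTCA. H3K4me3 marks the starts of genes that are active or poised, H3K27ac marks active starts and enhancers, and H3K27me3 marks genes silenced by Polycomb.

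AP-1 motifs lay near p-JUN summits at a minority of these genes. On both strands TGAGTCA and TGACTCA were searched, and a match counted where its centre lay within 50 bp of a summit. In the 4 p-JUN lists this held for 30.6% to 32.8% of all peaks. It held for 6 of 28 and 4 of 29 peaks of the contractile genes on soft, and for 4 of 25 and 5 of 30 on stiff. The matches belonged to 4 of the 10 genes. The highest such summit of each is shown, on the strand of the gene and with the motif in capitals. In that ACTG2 region 2 of the 4 summits lay within 50 bp of a motif, and in that of TPM2 3 of the 5. In those of TAGLN and CNN1 all 4 did.
ACTG2, chr2:74114823-74114849, plus strand, upstream of the gene: aaggaaatttTGACTCAtactacagca
TAGLN, chr11:117077856-117077882, plus strand, in an untranslated exon at the end of the gene: cgacctggaaTGACTCAtcccctaggg
CNN1, chr19:11642971-11642997, plus strand, upstream of the gene: tcaccagcaaTGAGTCAtggtgatatc
TPM2, chr9:35688856-35688882, minus strand, in an intron: gatcaagcaaTGAGTCAttgtgggggt
Over whole regions, 8 of the 36 p-JUN regions of these genes held an AP-1 motif, against 50.4% of all p-JUN regions, and the median widths were 553 and 573 bp. None of the 10 promoters held either AP-1 form in the 300 bases before the canonical start, where 3.59% of 19856 protein-coding promoters did.

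CArG boxes were searched in the same promoters. They were found in the 300 bases before the canonical start at 4 of the 10 genes, ACTG2 and CALD1 among them, and at 1.41% of all 19856. The stretches of ACTG2 and CALD1 run 5′ to 3′ on the plus strand of hg19, the strand of both genes, with the CArG boxes in capitals. They are shown because their positions can be set against the peaks described afterwards.
ACTG2, chr2:74120000-74120096: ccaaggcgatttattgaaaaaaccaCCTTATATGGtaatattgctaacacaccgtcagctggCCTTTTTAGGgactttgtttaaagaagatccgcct
CALD1, chr7:134464063-134464122: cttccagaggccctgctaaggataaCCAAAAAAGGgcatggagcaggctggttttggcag
Counted from the canonical start, with negative numbers upstream, the first base of each box lay at -110 and -73 in ACTG2 and at -297 in CALD1.
Of the 36 p-JUN regions 5 held a CArG box, 2 of them at CALD1, against 3.2% of all p-JUN regions. A match to either motif is a description of these letters and was not tested as a binding site.

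The 10 genes did not carry the marks of a start alike. A peak within 1 kb of the canonical start was found in every p-JUN list at 6 genes, TAGLN, CNN1, MYL9, TPM1, TPM2 and CALD1, which is true of 34.4% of all protein-coding genes. LMOD1 had it in soft replicate 1 and stiff replicate 2 only, and ACTA2, ACTG2 and MYH11 in no list. H3K4me3 was found there in every list at 6 genes, TAGLN, MYL9, TPM1, TPM2, CALD1 and LMOD1, against 61.1% of all genes, and in no list at ACTA2, ACTG2, CNN1 and MYH11. H3K27ac was found in both lists at 4 genes, ACTA2, TAGLN, MYL9 and CALD1, against 19.1% of all genes, and on soft only at TPM2. TAGLN, MYL9 and CALD1 were the genes with p-JUN, H3K4me3 and H3K27ac at the start in every list.

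H3K27me3 reached the start of 1 gene. MYH11, the smooth muscle myosin heavy chain, had a region at chr16:15950720-15951614, in soft replicate 1 with a fold of 2.59 over local background and in stiff replicate 1 with a fold of 3.23. The other 2 H3K27me3 lists had no peak in any of the 10 windows. Of all protein-coding genes, 8.26% had H3K27me3 at the start in at least 1 list and 27.4% in the window.

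Over the whole window, start included, each of the 10 genes had p-JUN in every list, as did 67.4% of all genes. At MYL9 the p-JUN region was the one at the start. For H3K4me3 it was 9 windows, all but that of MYH11, against 72.1%. For H3K27ac it was 6 windows in both lists, against 41.1%, with CNN1, MYH11 and TPM2 on soft only and TPM1 in neither list. CNN1 encodes calponin, an actin-binding protein that restrains myosin, and was the member with p-JUN in every list and no H3K4me3 peak at its start. Such a pattern was found at 1.14% of protein-coding genes. TPM1 and LMOD1 had H3K4me3 in every list but no H3K27ac peak at the start, a pattern of 29.8% of all genes.

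**Figure D1:**
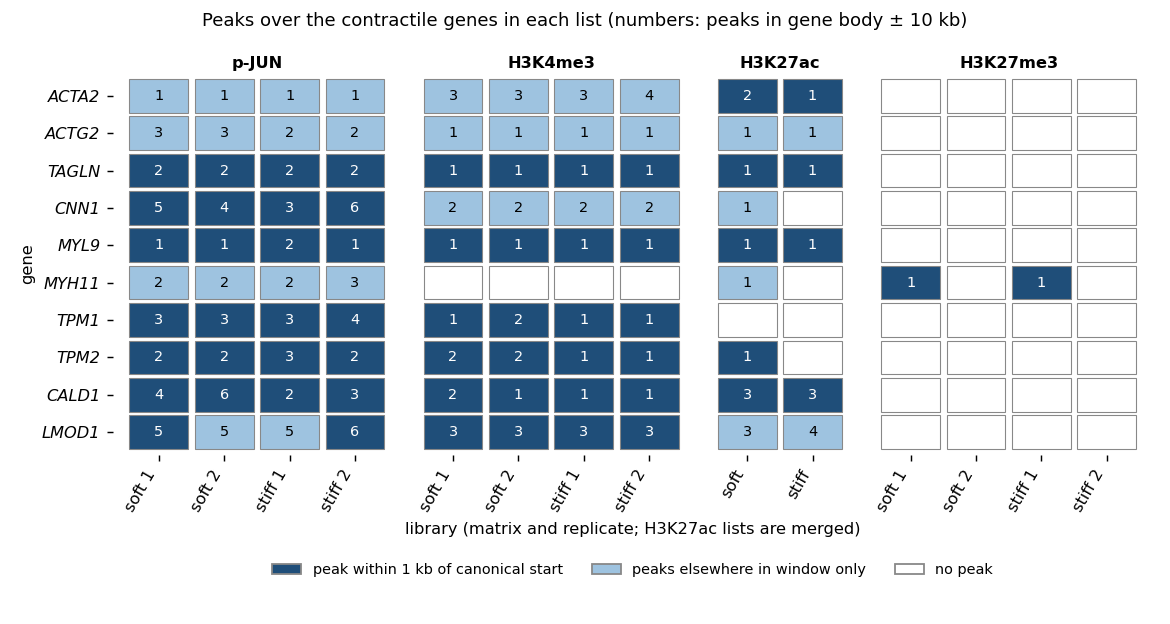
Peaks of each list (columns, by mark, matrix and replicate) over each gene (rows); the number in a cell is the count of peaks in the gene body plus 10 kb on each side. Dark cells have a peak within 1 kb of the canonical start, light cells only elsewhere in the window, and white cells none; the dark p-JUN and H3K4me3 columns share TAGLN, MYL9, TPM1, TPM2 and CALD1, and H3K27me3 is white except in MYH11.

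Part of these peaks sat at the starts of neighboring genes. Merging peaks that overlapped across the lists of a mark gave 36 p-JUN regions, 17 H3K4me3 regions, 15 H3K27ac regions and 1 H3K27me3 region. Another gene's start lay at 6 of the p-JUN regions, at 6 of the H3K4me3 regions and at 5 of the H3K27ac regions. The matching share over all regions of each mark was not counted, so these counts are not read as particular to the contractile genes. The neighbors were FAS at ACTA2, DGUOK at ACTG2, ECSIT, ELOF1 and ZNF627 at CNN1, and SHISA4 and TIMM17A at LMOD1. For ACTG2 and CNN1 every H3K4me3 peak was of this kind.

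The clearest case was ACTA2, which encodes α-smooth muscle actin, the usual marker of an activated stellate cell. Its annotated gene body runs past the canonical start to an alternative start that faces the start of FAS, a death receptor gene. The single p-JUN region of the ACTA2 window lay there, at -37.99 kb (chr10:90750063-90751164), with 29 and 34 summit fragments on soft against 22 and 29 on stiff. An H3K4me3 region lay at the same place, with 289 and 365 fragments on soft against 410 and 641 on stiff, and so did an H3K27ac peak of 24 fragments that was called on soft only. Around the canonical start itself there was neither p-JUN nor H3K4me3. The mark found there was H3K27ac at 1.17 kb, in an intron (chr10:90711187-90711643), with 15 fragments on soft and 15 on stiff. In this and the following gene paragraphs fragments are not scaled for depth. Over all H3K4me3 peaks the median summit had 120 and 141 fragments on soft against 151 and 207 on stiff.

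ACTG2, the enteric smooth muscle actin, also lacked p-JUN and H3K4me3 at its start, and its paired CArG boxes lay outside every called region. Its own p-JUN was upstream. A region at -5.02 kb (chr2:74114745-74115338), which holds the AP-1 motif printed above, had 41 and 41 fragments on soft against 42 and 48 on stiff. A weaker region at -2.15 kb had 26 and 23 fragments on soft and was not called on stiff. The highest p-JUN of the window, at 33.85 kb over the start of DGUOK, had 54 and 45 fragments on soft against 43 and 52 on stiff.

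TAGLN encodes transgelin, an actin-binding protein that appears early in smooth muscle. At its start p-JUN had 84 and 69 summit fragments on soft against 55 and 67 on stiff, so both stiff libraries lay below both soft ones. H3K4me3 had 101 and 133 fragments on soft against 179 and 280 on stiff, in the opposite order. H3K27ac had 26 fragments on soft and 33 on stiff. A second p-JUN region at 7.74 kb (chr11:117077133-117078100), over the end of TAGLN and inside the convergent gene PCSK7, was higher than the one at the start, with 203 and 192 fragments on soft against 148 and 227 on stiff.

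MYL9, the regulatory light chain of smooth muscle and nonmuscle myosin, had the highest H3K4me3 of the set. Its region had 410 and 539 fragments on soft against 653 and 869 on stiff, and ranked 424 of 18096 and 288 of 18857 peaks on soft and 96 of 18119 and 171 of 18743 on stiff by −log10 q. The p-JUN region over the same start was weaker, with 50 and 43 fragments on soft against 34 and 51 on stiff. H3K27ac was at 38 and 37 fragments on soft and stiff.

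CNN1 held the strongest p-JUN region of the 10 genes by summit fragments, and its own upstream regions lay outside H3K4me3. The region at -6.66 kb (chr19:11642556-11643835), with the AP-1 motif printed above, had 431 and 358 fragments on soft against 357 and 400 on stiff. The next, at -2.71 kb, had 254 and 200 on soft against 225 and 251 on stiff, and 3 of its 4 summits had an AP-1 motif within 50 bp. The region at the start, at -0.15 kb, had 104 and 80 on soft against 91 and 143 on stiff. In these 3 regions the unscaled fragments of the 2 matrices overlapped. On a log2 scale centered on each library's median, the -6.66 kb region had 2.39 and 2.35 on soft against 2.29 and 2.23 on stiff. There both stiff libraries lay below both soft ones (limma adjusted p = 0.595). The regions at -2.71 kb and at the start still overlapped on that scale. A further region at -9.59 kb, over the ECSIT start and its H3K4me3, had 124 and 94 fragments on soft and 100 in stiff replicate 2, and was not called in stiff replicate 1. The fold over local background was 3.05 to 4.66 at the CNN1 start, against 9.57 to 13.99 at the CALD1 start.

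The tropomyosins lie along the actin filament and gate the access of myosin. TPM1 had p-JUN at its canonical start, with 73 and 73 fragments on soft against 57 and 89 on stiff, and at a second start of the gene at 5.58 kb, with 99 and 106 on soft against 64 and 104 on stiff. Its H3K4me3 region of 2841 bp, the widest of the set, had 183 and 245 fragments on soft against 255 and 363 on stiff. TPM2 had p-JUN at its start with 58 and 47 fragments on soft against 51 and 48 on stiff. The summit of that region lay at 1.07 kb, in an intron, next to the AP-1 motif printed above. A second region at 7.31 kb had 30 and 29 fragments on soft against 38 and 34 on stiff, with an AP-1 motif within 50 bp in 3 of its 4 summits. H3K4me3 at the TPM2 start had 205 and 264 fragments on soft against 299 and 443 on stiff.

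CALD1 encodes caldesmon, which ties actin to myosin and calmodulin, and has the longest window. At its canonical start p-JUN had 111 and 90 fragments on soft against 69 and 128 on stiff, H3K4me3 had 191 and 225 on soft against 226 and 369 on stiff, and H3K27ac had 34 and 26 on soft and stiff. Its CArG box lies inside the p-JUN and H3K27ac regions. Among all H3K27ac regions 2.5% held a CArG box, and 3 of the 15 regions of the contractile genes did, 2 of them at CALD1. An intronic region at 119.92 kb (chr7:134584030-134584754) had 87 and 89 p-JUN fragments on soft against 93 and 109 on stiff. There both stiff libraries lay above both soft ones, and the nearest AP-1 motif was 61 bp from a summit, just outside the 50 bp used.

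LMOD1 encodes leiomodin, which starts actin filaments in smooth muscle. H3K4me3 at its start had 95 and 105 fragments on soft against 85 and 122 on stiff. The p-JUN peak there was near the bottom of its lists, with 23 fragments in soft replicate 1 and 15 in stiff replicate 2. More p-JUN was found inside the gene, at 29.73 kb, with 83 and 84 fragments on soft against 57 and 94 on stiff, and beyond its end at 50.52 kb, with 75 and 65 on soft against 57 and 50 on stiff.

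MYH11 had p-JUN far inside the gene. The region at 148.66 kb (chr16:15801898-15802458), which lies in an intron and also inside the overlapping gene NDE1, had 61 and 61 fragments on soft against 65 and 70 on stiff. No H3K4me3 peak was found anywhere in its window.

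**Figure D2:**
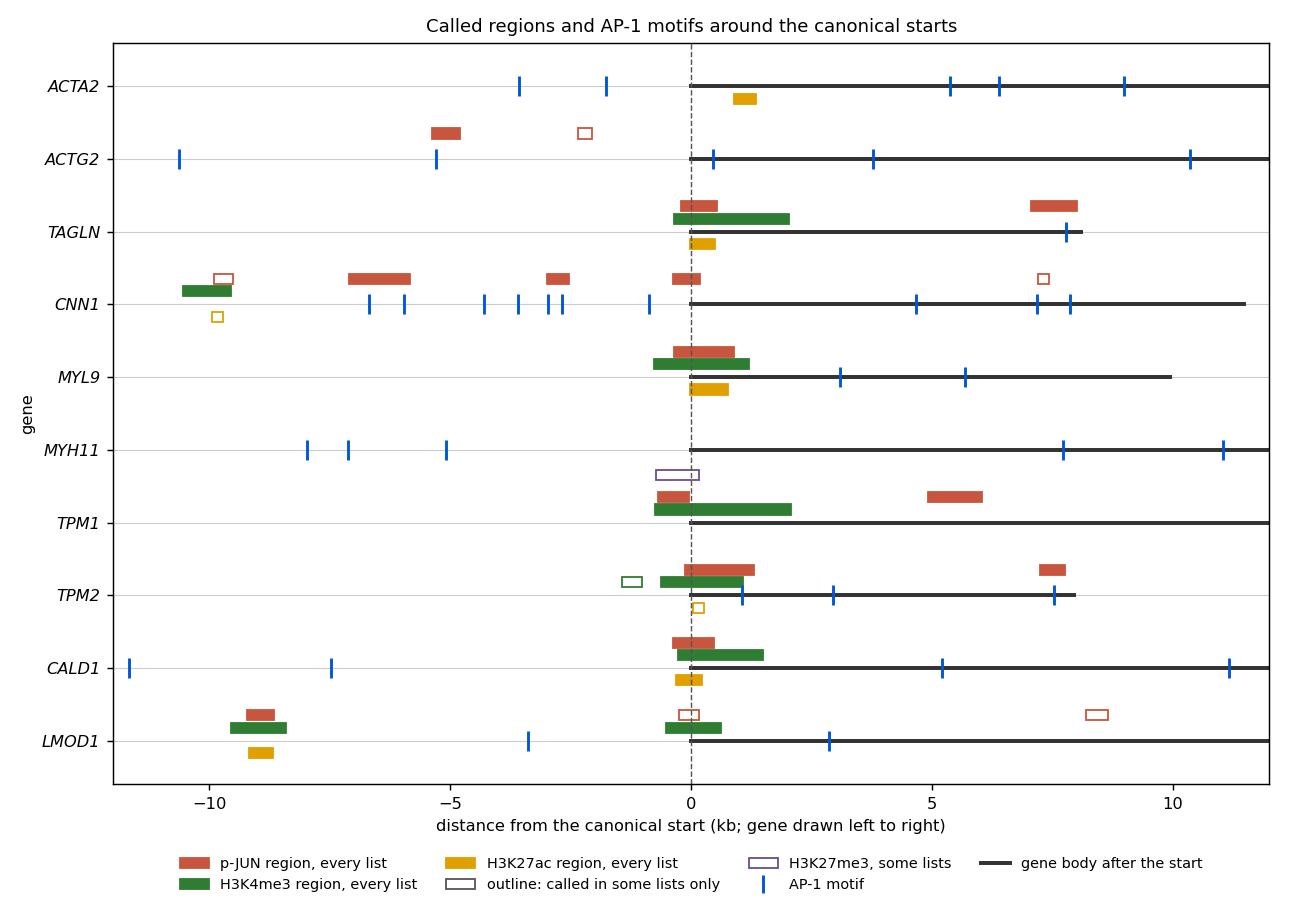
Called regions (boxes, by mark) and AP-1 motifs (blue ticks) within 12 kb of the canonical start of each gene (rows); the x axis is the distance in kb with the gene drawn left to right, and outlined boxes were called in some lists only. The CNN1 p-JUN boxes at -6.66 and -2.71 kb hold AP-1 ticks and the one at its start does not, and ACTA2, ACTG2 and MYH11 have no H3K4me3 box.

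**Figure D3:**
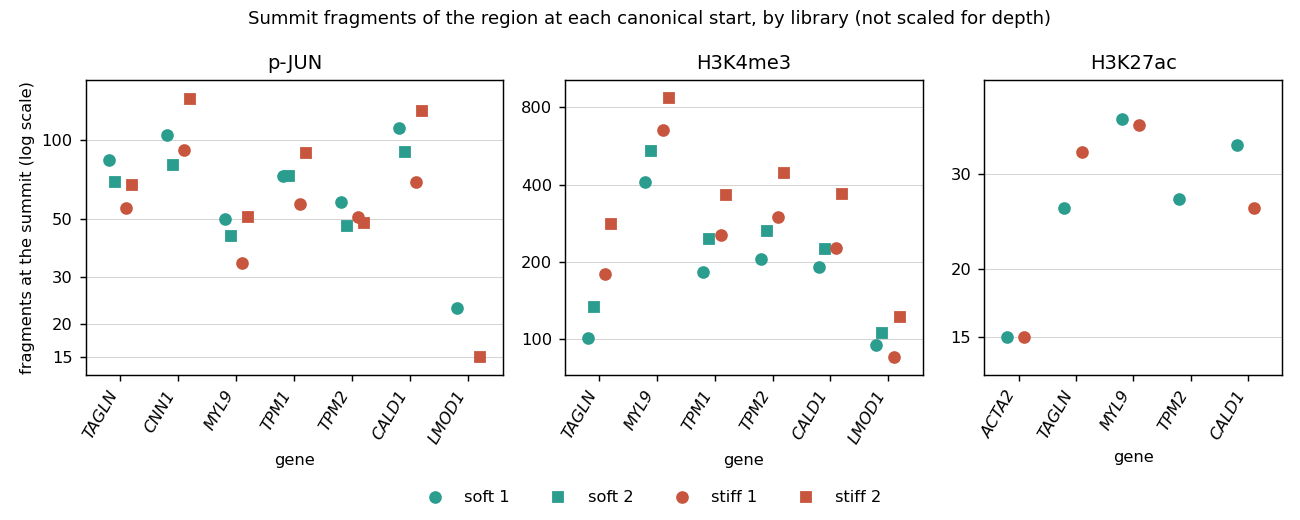
Fragments at the summit of the region at each canonical start (log y axis, x axis the genes), 1 point per library and not scaled for depth, with soft in green and stiff in red. For H3K4me3 the stiff replicate 2 library is the highest at every gene shown, as it is over all peaks, where the median is 207 fragments against 120, 141 and 151 in the other lists.

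The question of the series is what a stiff matrix changes. In the number of peaks the contractile genes showed little. The 10 windows held 28 and 29 p-JUN peaks on soft against 25 and 30 on stiff, a log2 ratio of the means of -0.05. The spread, the square root of the summed soft and stiff replicate variances of the log2 counts, was 0.19. The windows held 16 and 16 H3K4me3 peaks on soft against 14 and 15 on stiff, a log2 ratio of -0.14 with a spread of 0.07. The H3K27ac lists held 14 peaks on soft and 11 on stiff, which is -0.35 as a log2 ratio, with a 95% exact binomial interval from -1.63 to 0.90 that covers counting error only, and the soft list was the longer with 18238 peaks against 13322. Cut to the same length, the lists held 10 and 11, and the log2 ratio turned to 0.14. It was -0.74 with 10 and 6 peaks of −log10 q of at least 10, and -0.49 with 28 and 20 peaks in windows of 50 kb on each side.

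Regions called in both lists of one matrix and in neither of the other were few. For p-JUN, 21 of the 36 regions were in every list (58.3%, against 65.8% of 61411 regions in all). Soft-only were 3 of the 36, where 1.74% of all p-JUN regions were, and stiff-only were 0, where 2.75% were. The remaining 12 were called in other combinations of lists, 7 of them in 1 list only. Some of these were in stiff replicate 2 alone, such as CNN1 at 7.41 kb. Others were in 1 soft list alone, such as CNN1 at 13.34 kb. The 3 soft-only regions were the ACTG2 region at -2.15 kb and 2 in introns of CALD1. At 96.38 kb (chr7:134560476-134561033) the CALD1 fragments were 31 and 22, and at 106.59 kb (chr7:134570912-134571737) they were 25 and 21. All had few fragments, but they did not rank alike. The ACTG2 region ranked 51483 of 51665 and 47963 of 48163. In the same lists the CALD1 region at 106.59 kb ranked 47307 and 46339, and that at 96.38 kb 38461 and 42856. A stiff signal under the peak caller's limit would look the same as none.

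For H3K4me3, 14 of the 17 regions were in every list (82.4%, against 78.9% of 20393 in all), 1 was soft-only, where 1.25% of all regions were, and 0 were stiff-only, where 1.77% were. The soft-only region lay at -1.15 kb of TPM2 (chr9:35690935-35691370), over another start of the gene, with 72 and 83 fragments and folds of 2.44 and 2.23. It ranked 17435 of 18096 and 18338 of 18857.

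For H3K27ac, 10 of the 15 regions were in both lists (66.7%, against 54.1% of 20403 in all), 4 were on soft only, where 35.0% of all regions were, and 1 was on stiff only, where 10.9% were. The 4 lay at the start shared by ACTA2 and FAS (24 fragments), at the ECSIT start beside CNN1 (20 fragments), at the TPM2 start (27 fragments) and in the MYH11 intron, overlapping the p-JUN region at 148.66 kb (20 fragments). The stiff-only region lay in the LMOD1 intron at 29.55 kb (14 fragments), within the p-JUN region at 29.73 kb, which was called in every list. The soft-only p-JUN region of CALD1 at 106.59 kb overlapped H3K27ac that was called in both lists, with 21 fragments on soft and 18 on stiff, and an H3K4me3 peak of 18 fragments that was called in soft replicate 1 only. Of the 36 p-JUN regions of the contractile genes 12 overlapped an H3K27ac region (33.3%, against 29.7% of all p-JUN regions) and 13 an H3K4me3 region (36.1%, against 14127 of 61411 in all). None overlapped H3K27me3, against 1.3% of all.

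No contractile gene region differed in height past the threshold. Summit fragments were put on a log2 scale, centered on the median of each library and tested with limma over all regions called in every list of a mark, at a Benjamini-Hochberg adjusted p of 0.05. Of the 21 p-JUN regions of these genes 0 passed, as did 0.0% of all 40433 tested. At an unadjusted p under 0.05 there were 2 of the 21 and 23.1% of all regions. Of the 14 H3K4me3 regions 0 passed, against 0.0621% of the 16098 tested, and at an unadjusted p under 0.05 there were 3 of the 14 and 19.3% of all. With 2 libraries a side an exact permutation test of a single value cannot go below p = 0.33, so none was used.

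The p-JUN differences, stiff minus soft on the log2 scale, ran from -0.44 to 0.27 with a median of -0.13, against -0.05 over all regions, and 15 of the 21 were below 0. The share below 0 was not counted over all regions, whose median was itself below 0. Both stiff libraries lay above both soft ones in 1 of the 21, where 22.5% of all regions had this order. That was the CALD1 region at 119.92 kb, with almost no margin. Its centered value rounded to 0.35 in both soft replicate 2 and stiff replicate 1. Both stiff libraries lay below both soft ones in 8, where 33.3% of all regions did. The lowest values were -0.44 (SE 0.16, limma adjusted p = 0.159) at LMOD1, 50.52 kb, then -0.38 (SE 0.12, limma adjusted p = 0.128) at the TAGLN start and -0.38 (SE 0.19, limma adjusted p = 0.271) at the second start of TPM1. The highest were 0.27 (SE 0.17, limma adjusted p = 0.368) at the CNN1 start, 0.23 (SE 0.16, limma adjusted p = 0.417) at TPM2, 7.31 kb, and 0.14 (SE 0.13, limma adjusted p = 0.564) at CALD1, 119.92 kb. All 6 stayed short of the threshold. On the deposited fold, the summit over local background, the log2 differences of these 6 were smaller in size except at the CNN1 start, where it was 0.31. On that scale 13 of the 21 were below 0, and the sign turned at 4 regions.

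The H3K4me3 differences ran from -0.44 to 0.48, with a median of 0.06 against -0.01 over all regions, and 10 of the 14 were above 0. The share above 0 was not counted over all regions. On the deposited fold 8 were above 0 and the sign turned at 4. Both stiff libraries lay above both soft ones in 5 of the 14, where 23.4% of all regions did, and below in 3, where 28.4% did. The 5 included the starts of TAGLN, MYL9 and TPM2 and the start shared by ACTA2 and FAS. The last was the start of the neighbors ELOF1 and ZNF627, downstream of CNN1 and 20.19 kb from its start. TAGLN had the highest value, 0.48 (SE 0.10, limma adjusted p = 0.0903), followed by MYL9 at 0.21 (SE 0.10, limma adjusted p = 0.300) and the ACTA2 and FAS start at 0.19 (SE 0.09, limma adjusted p = 0.323). At the starts of TPM2, TPM1 and CALD1 the values were 0.18, 0.06 and 0.01. The lowest were the LMOD1 start at -0.44 (SE 0.10, limma adjusted p = 0.11), ACTA2 at -22.14 kb, inside the gene STAMBPL1, with -0.28 (SE 0.10, limma adjusted p = 0.204) and ACTA2 at -48.21 kb with -0.17 (SE 0.15, limma adjusted p = 0.581). The TAGLN value belongs to the fragments alone. Its deposited fold was 7.31 and 7.13 on soft against 6.98 and 7.27 on stiff, a log2 difference of -0.09 (SE 0.07, limma adjusted p = 0.712), so the sign turns with the scale. At ACTA2, -48.21 kb, the value was 0.18 on the fold and 0.03 after quantile normalization.

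The 10 H3K27ac regions in both lists had log2 ratios between -0.18 at the CALD1 start and 0.55 at the TAGLN start, centered on the median of 11044 shared regions. None was 2-fold higher on stiff, against 0.616% of all, and none 2-fold lower, against 0.29%. At TAGLN the 95% exact binomial interval ran from -0.23 to 1.35 and at CALD1 from -0.97 to 0.60, counting error only. All 10 intervals included 0, and each rests on at most 38 fragments per list, so only large differences could have been seen. The next highest were LMOD1 at 43.18 kb with 0.21 (interval -0.79 to 1.21), and ACTA2 at 1.17 kb, also 0.21 (interval -0.92 to 1.34). The next lowest were LMOD1 at -8.84 kb with -0.13 (interval -1.21 to 0.92) and ACTG2 at 33.95 kb with -0.04 (interval -0.95 to 0.85), both at starts of neighboring genes. On the deposited fold the sign turned at 3 of the 10, among them LMOD1 at 43.18 kb (-0.11) and at -8.84 kb (0.03).

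**Figure D4:**
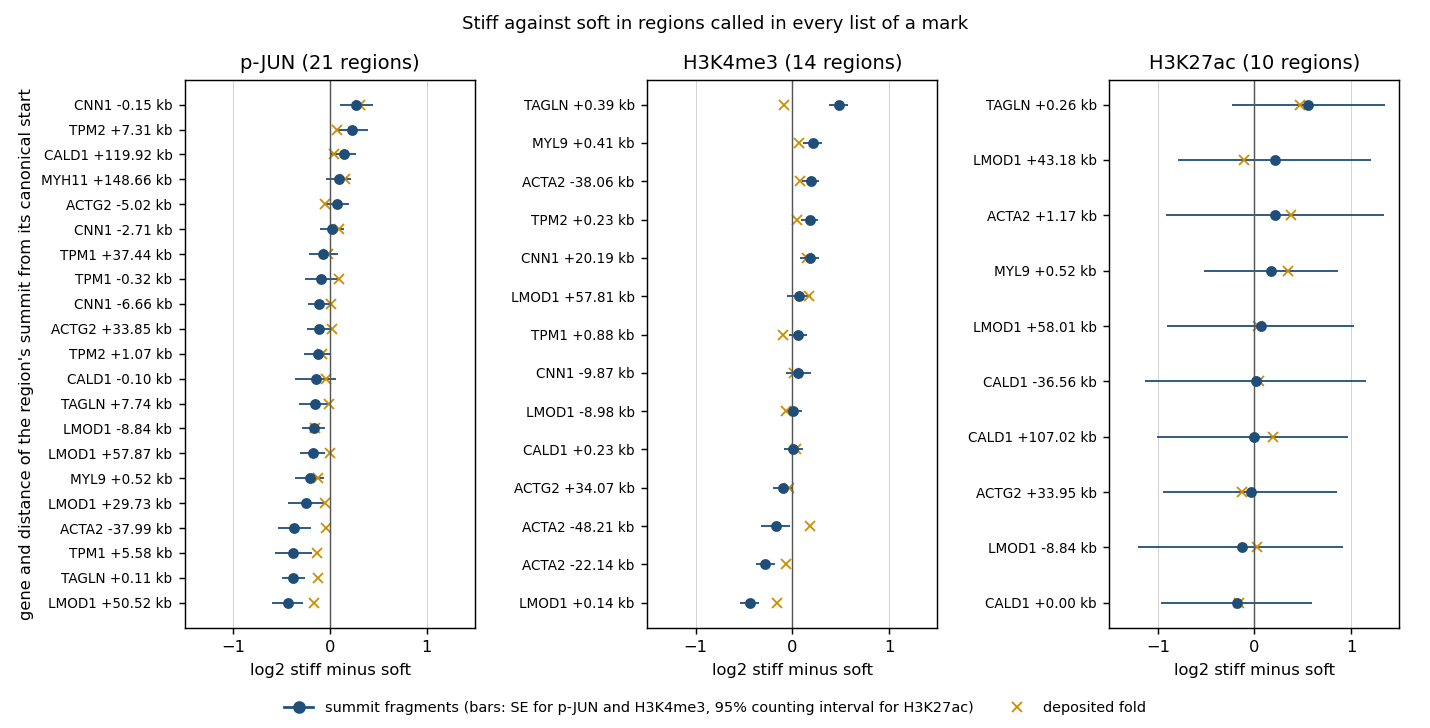
Log2 stiff minus soft (x axis) for each region of the contractile genes that was called in every list of the mark (rows, with the distance of the summit from the canonical start), for p-JUN, H3K4me3 and H3K27ac. Circles are summit fragments with the SE from limma or the 95% counting interval for H3K27ac, and crosses the deposited fold; for H3K4me3 at TAGLN the circle is at 0.48 and the cross at -0.09.

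The wider contractile program was read in the same way, at the canonical start. Of 22 other contractile and smooth muscle genes, 18 had H3K4me3 at the start in every list, 9 had p-JUN and 4 had H3K27ac. Broadly expressed relatives of the members, such as the nonmuscle actins and myosins, had them at 12, 9 and 6 of 13. Of all protein-coding genes, 61.1% had H3K4me3, 34.4% p-JUN and 19.1% H3K27ac at the start in every list. The H3K27ac count of the 22 genes is near that share. Striated muscle relatives had H3K4me3 in every list at 1 of 12 and p-JUN at 1 of 12. In at least 1 list 3 had H3K27me3, against 8.26% of all genes. Of 12 regulators, among them SRF, the myocardin-related factors and RHOA, 10 had H3K4me3 and 7 had p-JUN at the start in every list. The most p-JUN peaks lay in the windows of LPP, a focal adhesion protein, with 39 and 35 on soft against 39 and 39 on stiff, and of MYLK, the kinase of the myosin light chain, with 17 and 19 on soft against 15 and 19 on stiff. These counts were not scaled for the length of the window. The coactivator gene MYOCD had H3K4me3 at its start in all 4 lists, p-JUN in 2 of 4, H3K27me3 in 1 of 4 and H3K27ac in neither. No list of another gene group was tested against the members.

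Markers of the labelled cell type were partly marked. Of 10 stellate and mesenchymal markers, VIM, COL1A1, PDGFRB and RELN had H3K4me3 at the start in every list, COL3A1 and HAND2 in some, and COL1A2, DCN, DES and LRAT in none. Of all protein-coding genes 61.1% had it in every list, so these markers were not marked more often than genes at large. H3K27me3 lay at the start of RELN in 3 of 4 lists and of LRAT in 1 of 4. Of 6 hepatocyte, 3 endothelial and 5 leukocyte markers none had H3K4me3 at the start in any list, and of 3 cholangiocyte markers SOX9 did. Other marks were not all missing there, since p-JUN lay at the starts of SERPINA1 of the hepatocyte list, CD68 of the leukocyte list and SOX9 in all 4 lists, and H3K27ac at CD68 in both.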

How the data were processed

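LX-2 cells were assayed by CUT&Tag after 2 days on a soft or stiff matrix, with groups taken from the treatment given in the labels. The authors trimmed reads with Trim Galore, aligned them to hg19 with Bowtie2 and marked duplicates with Picard. The deposited lists are in the formats of MACS2, whose version, options and control are not given in the sources used here. The deposited fold (a ratio of summit to local background), the −log10 p and −log10 q values and the score derived from −log10 q are the authors' own. The narrow lists hold −log10 q from 5.0 upward, and the broad H3K27me3 lists from 1.31. Read totals were not used here.

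From the fold and −log10 p of each narrow peak the fragments at the summit were recovered, with 1 added to fragments and to background in the fold, and a Poisson tail for p. This gave a whole number for 100.0% of narrow peaks after rounding. Depth is therefore known only through the median summit. Over whole lists it was 60 to 64 fragments for p-JUN, 120 to 207 for H3K4me3 and 26 to 27 for H3K27ac. The limma fits were centered on the medians over regions called in every list. For p-JUN these were 82 and 70 fragments on soft against 73 and 85 on stiff. For H3K4me3 they were 134 and 166 on soft against 171 and 248 on stiff. Depth is unknown for H3K27me3.

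Gene bodies and canonical starts came from GENCODE release 44 mapped to GRCh37, the build of the lists, and sequences from the GRCh37 genome. Regions were merged where peaks of a mark overlapped by 1 bp. Heights were tested with limma 3.58.1 in R 4.3.3, without the replicate number as a block. The fit was tested on simulated data with planted changes much larger than any seen in these genes. That test does not show whether changes of the size seen here would be found. Other steps ran in Python 3.11.15 with pandas 2.3.3 and pysam 0.24.0. All 10 genes are named, with the 3 largest rises and falls per mark. Each region called in every list of 1 matrix and in no list of the other is also described. Regions called in other combinations of lists are described only in part. The fragments of the highest region of each mark are also given. Left out are some that lay at starts of neighbors of ACTG2, CNN1 and LMOD1. Sequences are those of the highest p-JUN summit with an AP-1 motif and of promoter CArG boxes. Some of the latter are not reported here. The 10 genes and the other lists were chosen with earlier results of these data known. Intervals cover counting error only.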

Additional observations from a re-analysis of the deposited data

How the results depend on the processing

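No region of the 10 genes passed the limma threshold under any of the 8 alternatives tried for p-JUN or for H3K4me3, which were the deposited fold, quantile normalization, peaks of −log10 q of at least 10, the replicate block and leaving out each library in turn. Leave-one-out counts were 0 to 0 for both marks. Over all regions the p-JUN count was 0 in the fit without the block, 1492 with it and 4 without soft replicate 2, and the H3K4me3 count was 10, with 122 at −log10 q of at least 10, 6 after quantile normalization and 0 with the replicate block. The replicate block left the count for the 10 genes at 0 for both marks, and gave log2 peak ratios of -0.06 for p-JUN and -0.14 for H3K4me3 and -0.029 percentage points for H3K27me3. Libraries that shared a number did not deviate together from their group means (r = 0.05 for p-JUN and -0.06 for H3K4me3), so the numbers are not read as pairs. The H3K4me3 peak ratio moved from -0.14 to -0.05 with windows of 50 kb on each side. Without regions at the start of another gene, an alternative chosen after seeing the data, it moved to -0.23, and the p-JUN and H3K27ac ratios were -0.06 and -0.17. Leaving out 1 library gave -0.19 to 0.07 for p-JUN, with the sign turning without stiff replicate 1, -0.19 to -0.09 for H3K4me3, and -0.082 to 0.024 points for H3K27me3 bases, where the 10 windows were covered to 0.0527% on soft and 0.0236% on stiff, a difference of -0.029 points. The H3K27me3 sign also turned to 0.024 with −log10 q of at least 2, with lists of equal length or without soft replicate 1, and to 0.006 over gene bodies. The cause of these moves was not tested. No H3K27ac region of the 10 genes reached 2-fold with the deposited fold, without centering or at −log10 q of at least 10. Low fragment counts limit what the H3K27ac lists and the weakest p-JUN regions can show.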
